A study of Mus musculus with 2 samples.

Results

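CpG-rich promoters that serve a single gene were the subject of these measurements, made by DNase-seq in mouse spleen. DNase-seq cuts nuclei with the endonuclease DNase I, and stretches of accessible chromatin appear as peaks of cuts. A member is a peak of replicate 1 that reaches within 1 kb of a protein-coding start site whose surrounding sequence (500 bases either side) has a CpG observed/expected ratio of at least 0.6, and that overlaps such a peak of replicate 2. A start site was left out where a protein-coding gene starts on the other strand within 1000 bases upstream. The rule found 11844 members among the 42454 peaks of replicate 1, which is 27.9% of that list. Replicate 2 had 60683 peaks, of which 11858 at eligible promoters overlapped one of replicate 1; the values of replicate 2 for the class are over these. The members were chosen from sequence, annotation and the presence of a peak in both libraries, so that overlap is part of the rule. Signal height, width and footprints were not used directly. The demand for a partner left out mostly weak and narrow peaks, so it bears on the signal and width of members.

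Both libraries came from whole spleen of B6CASTF1/J females aged 36 days, and they form 1 group of 2 biological replicates with no treatment and no control group. B6CASTF1/J is the F1 hybrid of C57BL/6J and CAST/EiJ, and all reads were placed on the mm10 assembly, which is a C57BL/6J sequence. The labels describe differently numbered females but attach 1 donor entry to both, so the spread between libraries may be partly technical. Whole spleen mixes B cells, T cells, red blood cell precursors, macrophages and stroma, and in such a sample fewer cells of a type and less accessible chromatin per cell cannot be told apart. With 2 libraries in 1 group no comparison could be tested, since the smallest two-sided exact sign-flip p is 0.5. Values are given for each library, and differences between classes of peaks are stated only as they stood in each.

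CpG islands are stretches of DNA that keep many CpG dinucleotides because they are usually free of cytosine methylation in the germ line. In mammals most broadly expressed genes, and many developmental regulators, start inside one. At active CpG-island promoters a nucleosome-depleted region lies over the start, often bound by factors such as SP and KLF proteins, NRF1, ETS-family factors, NFY, YY1 and CREB. At silent developmental genes the island is typically covered by Polycomb complexes.

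The annotation (GENCODE vM21 basic, mm10) held 19358 CpG-rich protein-coding start sites, of which 2906 had a divergent partner and 16452, belonging to 9566 genes, were eligible. Of these genes 7750 had at least 1 member (81.0%, 95% Wilson interval 80.2 to 81.8%). A further 337 genes had a peak in replicate 2 only, 29 in replicate 1 only, and 12 in both libraries without overlap, while 1438 genes (15.03%) had no peak in either. Only peaks within 1 kb of an eligible start site were counted, and peaks at other start sites of the same gene were not. Of the genes with a member, 4516 had 1, 2350 had 2, 690 had 3 and 194 had more. Wilson intervals here cover counting error only. In 254 cases (2.14%) a member also reached a start site that had been left out.

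Sequences of members with a strong signal show what the consensus occurrences look like in place. For each of 5 factors, the member is printed that had the best mean signal rank among those whose consensus lay inside a footprint of both libraries, within 150 bases of the start site, with 50 bases on either side clear of exons. A footprint is a short run of bases inside an accessible region that is cut less often than its surroundings, as called by the authors at an FDR of 0.01. Sequences are from the mm10 assembly, 5′ to 3′ along the strand of the gene. Capitals mark the 1 occurrence that met the rule, and further matches in the same stretch, such as those in Eif1 and Rragc, are left in lower case.
NRF1, Eif1 (chr11:100319691-100319799, plus strand): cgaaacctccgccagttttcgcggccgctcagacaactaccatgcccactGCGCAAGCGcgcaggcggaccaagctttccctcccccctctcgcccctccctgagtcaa
ETS, Actr3 (chr1:125435757-125435863, minus strand): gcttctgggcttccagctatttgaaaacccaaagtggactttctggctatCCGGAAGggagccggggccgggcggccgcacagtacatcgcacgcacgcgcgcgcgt
YY1, Daxx (chr17:33909269-33909377, plus strand): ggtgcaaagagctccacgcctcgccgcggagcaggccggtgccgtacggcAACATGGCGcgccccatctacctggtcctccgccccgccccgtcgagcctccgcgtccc
NFY, Rragc (chr4:123917321-123917425, plus strand): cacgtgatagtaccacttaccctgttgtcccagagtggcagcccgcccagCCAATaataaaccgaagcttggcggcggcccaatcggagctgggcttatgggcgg
CRE, Senp2 (chr16:22009359-22009466, plus strand): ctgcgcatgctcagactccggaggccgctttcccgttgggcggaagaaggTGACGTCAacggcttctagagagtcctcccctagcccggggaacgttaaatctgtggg
The consensus centre lay 140 bases upstream of the start site in Eif1, which encodes a factor for start codon selection, and 83 bases upstream in Actr3, a subunit of the actin-nucleating Arp2/3 complex. It lay 122 bases upstream in Daxx, a histone H3.3 chaperone, 73 bases upstream in Rragc, a GTPase of the mTORC1 pathway, and 71 bases upstream in Senp2, a SUMO protease. Each of these 5 sequences occurred once in the assembled chromosomes.

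4 members from the gene lists described below show how much of a member lay in footprints. They are the best-ranking members of the cytosolic ribosomal protein, B cell, lymphocyte transcription factor and patterning factor lists, printed without their exon bases and with capitals for bases inside footprints of both libraries.
Rplp0 (chr5:115559261-115559466, plus strand): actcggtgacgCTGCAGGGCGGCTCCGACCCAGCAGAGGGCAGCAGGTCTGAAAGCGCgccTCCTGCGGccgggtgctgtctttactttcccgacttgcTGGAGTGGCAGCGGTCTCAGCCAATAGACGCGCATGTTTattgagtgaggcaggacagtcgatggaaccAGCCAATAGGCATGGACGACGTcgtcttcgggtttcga
Ets1 (chr9:32695861-32696021, plus strand): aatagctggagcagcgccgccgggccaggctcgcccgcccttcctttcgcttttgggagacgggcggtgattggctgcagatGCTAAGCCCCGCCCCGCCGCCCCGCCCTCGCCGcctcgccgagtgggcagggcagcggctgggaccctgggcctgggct
Stat3 (chr11:100939541-100939820, minus strand): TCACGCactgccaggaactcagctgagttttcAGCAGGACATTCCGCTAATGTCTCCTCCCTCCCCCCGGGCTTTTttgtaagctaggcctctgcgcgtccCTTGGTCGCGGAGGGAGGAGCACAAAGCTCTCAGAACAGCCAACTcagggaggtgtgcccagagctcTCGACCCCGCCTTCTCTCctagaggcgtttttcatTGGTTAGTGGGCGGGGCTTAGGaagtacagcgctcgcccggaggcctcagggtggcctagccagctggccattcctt
Sox12 (chr2:152398121-152398300, minus strand): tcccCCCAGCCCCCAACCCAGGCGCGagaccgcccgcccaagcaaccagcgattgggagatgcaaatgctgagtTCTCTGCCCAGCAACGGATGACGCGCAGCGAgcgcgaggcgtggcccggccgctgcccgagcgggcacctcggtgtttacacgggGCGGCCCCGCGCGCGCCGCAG
In Rplp0, which encodes a protein of the ribosomal stalk, 56.3% of the 206 bases were in footprints of both libraries, and they took in both NFY occurrences, the single SP/KLF occurrence and the CTCF consensus. In Ets1, a lymphocyte transcription factor, 20.5% of 161 bases were covered, with 3 of 5 SP/KLF occurrences inside and the NFY occurrence outside. In Stat3, which transmits cytokine signals, 48.2% of 280 bases were covered, with the SP/KLF occurrence inside and the NFY occurrence only partly inside. In Sox12, a SOX-family transcription factor, 41.1% of 180 bases were covered, but none of the 3 SP/KLF occurrences and the NFY occurrence lay wholly inside.

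The members were among the strongest peaks of each library. Signal is the authors' value per peak, whose scale the files do not state, so peaks were ranked within their own library and given as percentiles, where 100 is the strongest. The median percentile of members was 79.3 in replicate 1 and 84.2 in replicate 2 (81.7 ± 3.41, SD, n = 2), with median signals of 3.703 and 4.38. Over all eligible peaks, with or without a partner, it was 77.3 in replicate 1 and 79.1 in replicate 2. The rank of members is thus partly set by the rule. Shared peaks at CpG-rich promoters with a divergent partner stood higher in both libraries (1119 peaks in replicate 1, median percentile 88.7 ± 2.41). Shared peaks at CpG-poor promoters (3305 peaks, 67.2 ± 8.46) and away from promoters (23502 peaks, 49.1 ± 11.5) stood lower in both. The ranges of the 2 libraries did not overlap between any of these classes and the members. Members made up 76.1% of the peaks in the top signal decile of replicate 1 and 69.6% in replicate 2. Their median width was 220 bases in both libraries, with quartiles of 200 and 260, and their median GC content was 67.0%.

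Signal at members was nearly the same in order in the 2 libraries. Over the 11844 members Spearman's rho between the libraries was 0.978, a description over peaks that share the same pair of libraries. The median absolute difference in percentile was 4.38. The midpoints of 72.7% of members lay within 20 bases of their partner's, and 24.2% of members had identical coordinates in both libraries. Of the peaks at eligible promoters, 93.3% in replicate 1 overlapped an eligible peak of replicate 2 (92.8 to 93.7%), beside 93.8% of all replicate 1 peaks that overlapped any peak. In the other direction the share was 83.8% (83.2 to 84.4%), beside 65.7% of all replicate 2 peaks and 60.1% of replicate 2 peaks outside this class. Eligible peaks without a partner were weak and narrow: in replicate 1, 853 such peaks had a median percentile of 11.8 and a median width of 119 bases, and in replicate 2, 2291 had 21.5 and 180 bases.

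The members with the best mean rank had signals of 18.7 or more in replicate 1 and 29.1 or more in replicate 2. The member at Fzr1, which encodes an activator of the anaphase-promoting complex, had a signal of 23.4 in replicate 1 and 31.2 in replicate 2, ranks 9 and 15 of all peaks. It spanned chr10:81378521-81378780, just upstream of the start. Esrra, an orphan nuclear receptor of energy metabolism, had 20.6 and 35.6, and Dnpep, an aminopeptidase, had 20.2 and 35.9 with 10 and 9 footprints. The member at Eif1 had 19.7 and 31.5, and that at Nup107, a scaffold protein of the nuclear pore, had 22.2 and 29.8. Camsap1, which binds microtubule minus ends, had 18.7 and 36.6. Eif5a, a translation factor, had 19.7 and 29.9. Sertad1, a cell cycle regulator, had 19.0 and 29.8, and Sde2, a factor in genome maintenance, had 18.7 and 29.1. The first place by mean rank went to Gm21887 on chromosome X, with signals of 25.7 and 41.3, but the central 50 bases of that member had 2 exact copies in the assembly, so its value cannot be assigned to 1 place. Of the 72 members named by rule, 69 had a central sequence that occurred once.

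Most of the weakest members stood beside a stronger member of the same gene. The weakest 5 by mean rank, at Efr3a, Slc35f4, Usp9x, Map4 and Eif4e, had signals of 0.422 or less in replicate 1 except Map4 at 0.443, and of 0.359 or less in replicate 2. They were 60 to 150 bases wide in replicate 1 and their midpoints lay between offsets of -1033 and 670 bases from the start site, where negative is upstream. Eif4e, the cap-binding translation factor, had a further member whose signal was 9.41 and 16.6, at percentiles of 95.7 and 98.3. Map4, a microtubule-associated protein, had a further member with 10.2 and 15.9. Usp9x, a deubiquitinase, had further members, one of them with 2.64 and 3.26, and Efr3a had one with 3.82 and 3.28. Slc35f4 had the weak member only.

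The strongest member of a gene mostly sat over the start site with an upstream lean, and the additional members of a gene lay mostly downstream. For genes with 1 annotated start site, the midpoint of the strongest member was a median of 34 bases upstream in replicate 1 (offset -34, quartiles -82 and 5) and 35 bases upstream in replicate 2 (offset -35). This member covered the start in 75.1% and 74.1% of 3162 and 3161 genes. Other members of the same genes had a median offset of 368 and 369 bases, and 63.4% of 1499 and 61.9% of 1497 lay wholly downstream of the start. In all, 54.6% and 54.7% of members covered the start site.

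**Figure D1:**
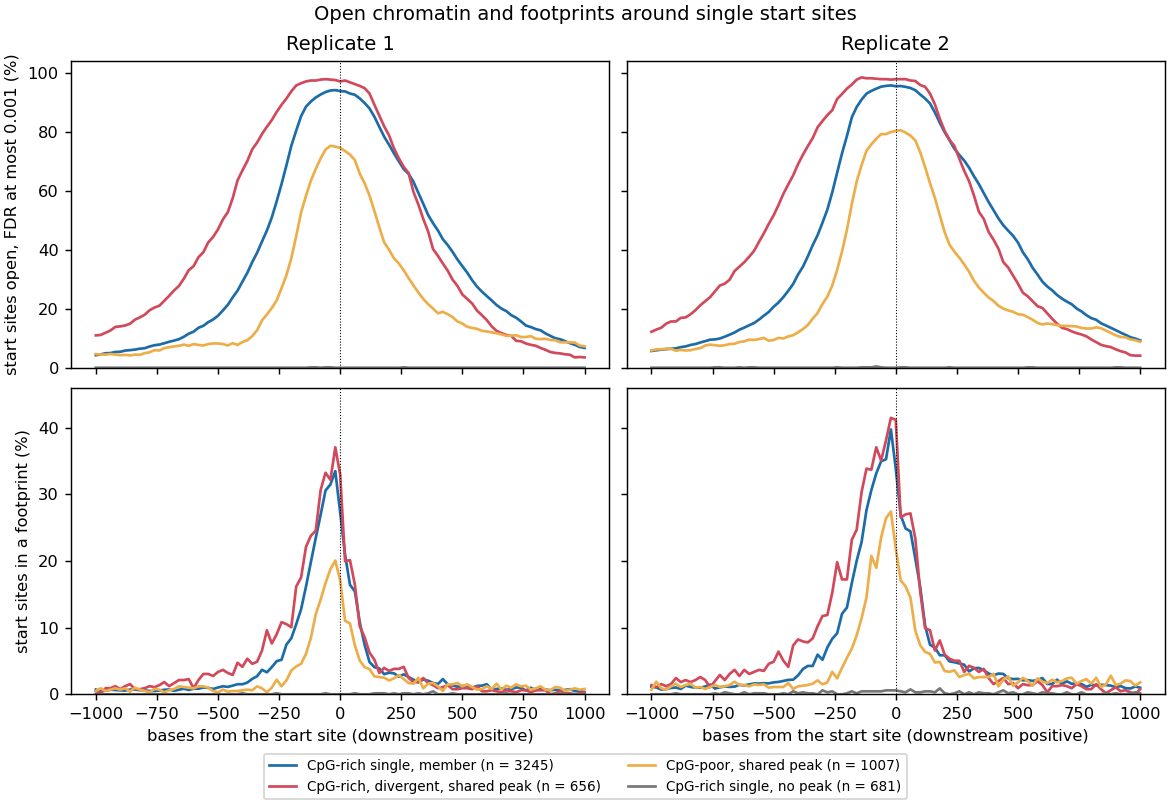
Share of single start sites that were accessible (upper panels, FDR at most 0.001, in percent) and that lay in a footprint (lower panels, in percent) by distance in bases from the start site, in 20-base steps, for each replicate. Lines stand for start sites of genes with 1 annotated start: CpG-rich single with a member (3245), CpG-rich divergent with a shared peak (656), CpG-poor with a shared peak (1007) and CpG-rich single with no peak (681). The accessible stretch at members reaches farther downstream than upstream, and at divergent sites, which have a second start upstream by the rule, farther upstream.

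The accessible stretch around a member's start was wide and tilted into the gene. At 3245 single start sites with a member, the base 20 bases upstream was accessible at an FDR of at most 0.001 in 94.1% of sites in replicate 1 and 95.7% in replicate 2. The share fell to 50% of its maximum at 280 bases upstream (offset -280) and 380 bases downstream in replicate 1, and at offsets of -300 and 440 in replicate 2. At 656 start sites with a divergent partner the corresponding offsets were -480 and 340, and -500 and 360, so the tilt was the opposite. Those sites were chosen for a second start within 1000 bases upstream, and member sites for its absence. The contrast upstream is therefore partly set by the rule. At 1007 CpG-poor start sites with a shared peak the highest share was 75.3% and 80.5%, and the offsets were -180 and 200, and -200 and 220. At members, 500 bases downstream was still accessible in 34.5% and 42.5% of sites, and 500 bases upstream in 17.7% and 20.7%. The share of sites inside a footprint was highest 20 bases upstream, at 33.5% and 39.7%. The presence of a peak chose the member sites, so a high accessible share at the start is no finding; its shape and extent are the description.

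Members carried more footprints per peak than CpG-poor promoter peaks and peaks away from promoters, fewer than divergent promoter peaks, and had none more often than any of these classes. A member held 3.33 footprints in replicate 1 and 3.87 in replicate 2 (3.60 ± 0.381, SD, n = 2), beside 2.16 and 3.01 in shared peaks away from promoters, 2.72 and 3.49 at CpG-poor promoters and 3.74 and 4.13 at divergent promoters. In members 15.6% and 10.2% of peaks had no footprint, beside 9.48% and 1.86% away from promoters and 13.4% and 8.72% at divergent promoters. At 78.4% of members at least 1 footprint of replicate 1 overlapped one of replicate 2 by 50% or more of the shorter, and 76.1% of the 39405 footprints of replicate 1 in members were shared in that sense. Csnk1g2, a casein kinase, had 15 and 13 footprints, Skil, a regulator of TGF-beta signalling, 14 and 12, Coq10a 13 and 13, Gna13, a G protein alpha subunit, 12 and 12, and Dus3l 12 and 13.

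At low signal members held fewer footprints than peaks away from promoters, and members beside the start held fewer than members over it. Among members between the 30th and 40th signal percentile, 616 in replicate 1 held 1.12 footprints and 501 in replicate 2 held 1.57, beside 2.07 and 2.57 in peaks away from promoters of the same signal decile. Members of that decile that covered a start site held 2.09 (151 members) and 2.94 (124 members), and those beside it held 0.802 (465 members) and 1.12 (377 members). No footprint was called in 52.1% and 50.3% of members of that decile, beside 7.01% and 2.51% of peaks away from promoters. In the top decile members held 4.96 and 4.90 footprints, beside 4.46 and 4.53. The share of members covering a start rose with signal, from 17.6% and 11.4% in the lowest decile to 74.7% and 72.4% in the highest. Median GC content of members ranged from 64.9% to 68.8% over the deciles of replicate 1 and that of peaks away from promoters from 50.9% to 64.1%; the part of base composition in the footprint counts was not tested.

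**Figure D2:**
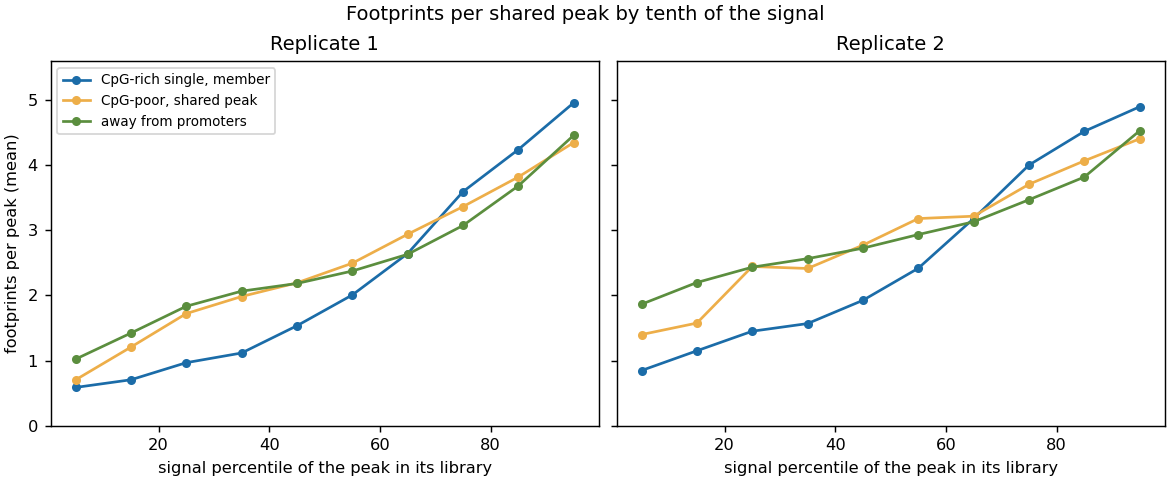
Mean number of footprints per shared peak by signal decile of the library (x axis, percentile; points at decile centres), for members, CpG-poor promoter peaks and peaks away from promoters, with 1 panel per replicate. Members lie below peaks away from promoters in the lower deciles (1.12 against 2.07 at the 30th to 40th percentile of replicate 1) and above them in the top decile (4.96 against 4.46).

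Of the consensus sequences of promoter factors, 8 were more frequent in members than in peaks away from promoters, and RFX and the TATA box were less frequent. Each was searched on both strands in the 200 bases around the midpoint of the replicate 1 peak, and a match is only an occurrence of those letters. SP/KLF (GGGCGG) occurred in 64.1% of members, beside 13.8% of shared peaks away from promoters and 57.7% of all 17343 promoter peaks of replicate 1. NRF1 (GCGCANGCG) occurred in 12.3% of members, 1.14% away from promoters and 10.5% of all promoter peaks. ETS (CCGGAAG) occurred in 14.7%, 3.37% and 13.5%, and NFY (CCAAT) in 26.8%, 19.99% and 26.8%, with 28.05% in CpG-poor promoter peaks. YY1 (AANATGGCG) occurred in 4.52%, 0.562% and 3.87%, and the cyclic AMP response element CRE (TGACGTCA) in 3.05%, 0.566% and 2.69%. E-box (CACGTG) occurred in 8.43%, 4.97% and 7.73%, ZNF143 (ACTACAA) in 2.68%, 1.66% and 2.76%, and RFX (GTTGCCA) in 2.34%, 3.10% and 2.62%. The TATA box string TATAAA occurred in 2.04%, 5.74% and 2.45%. Shared peaks at divergent CpG-rich promoters had larger shares than members for NRF1 (17.3%), ETS (21.3%), NFY (34.4%), YY1 (5.36%), CRE (4.11%) and ZNF143 (4.38%). The same held for RFX and the TATA string (3.13% each). SP/KLF (59.6%) and E-box (7.24%) had smaller shares there. The 11844 members are themselves part of all promoter peaks. None of the patterns contains another whole, although their ends can overlap.

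Consensus sequences of factors of blood cell enhancers ran the other way. RUNX (TGTGGTT) occurred in 1.79% of members, beside 8.39% of peaks away from promoters and 2.41% of all promoter peaks. PU.1 (GAGGAAGT), named for a factor of myeloid and B cells, occurred in 2.00%, 7.12% and 2.59%, and the string AGATAA, named for GATA factors, in 2.17%, 7.85% and 2.81%. AP-1 (TGANTCA) occurred in 2.14%, 6.47% and 2.61%. The CTCF consensus, of the factor that anchors chromatin loops, occurred in 0.633%, 10.7% and 0.992%. Shares were similarly low at divergent CpG-rich promoters: RUNX 1.52%, PU.1 1.97%, the GATA string 2.06%, AP-1 1.88% and CTCF 0.447%. Base composition differed between the classes, with a median GC content of 67.0% in members and 52.5% away from promoters in replicate 1, and its part in these shares was not tested.

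A comparison within eligible start sites holds CpG richness closer. In the 200 bases around 1 start site per gene, 7750 genes with a member were set beside 1438 genes with no peak. ETS occurred in 16.6% (15.8 to 17.5%) with a member and 2.92% (2.17 to 3.92%) without. YY1 occurred in 6.79% (6.25 to 7.37%) and 1.25% (0.793 to 1.97%). NRF1 occurred in 13.0% (12.3 to 13.8%) and 5.01% (3.99 to 6.26%). CRE occurred in 3.07% and 0.974%, NFY in 25.7% and 17.3%, and SP/KLF in 68.1% and 57.8%. The TATA box string TATAAA ran the other way, with 2.65% (2.31 to 3.03%) and 4.73% (3.75 to 5.95%). PU.1 was more frequent with a member, at 1.64% (1.38 to 1.95%) and 0.556% (0.282 to 1.09%), while it was less frequent in members than in peaks away from promoters. The RUNX values were 1.48% and 1.32%, those of the GATA string 1.77% and 2.29%, and those of AP-1 1.78% and 2.23%, each with overlapping intervals. The E-box intervals overlapped, at 7.497% (6.93 to 8.10%) and 6.61% (5.43 to 8.01%).

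Members with more of the promoter consensus sequences had a higher signal. Over the 8 consensus sequences SP/KLF, NRF1, ETS, YY1, NFY, CRE, ZNF143 and E-box, 2002 members with none had a median percentile of 50.9 in replicate 1 and 62.4 in replicate 2. With 1 the medians were 73.6 and 79.6 (4985 members), with 2 they were 87.0 and 90.5 (3562 members), with 3 they were 90.4 and 92.9 (1128 members), and with 4 they were 92.0 and 94.3 (155 members). The 12 members with 5 or more had 91.7 and 91.7. Of single sequences, NFY went with the largest difference in replicate 1 among these 8, at 88.5 with and 74.9 without, and in replicate 2 it stood at 92.0 with and 80.5 without. Distance from the start site and base composition were not held equal between these groups, and their part was not tested.

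Occurrences lay at characteristic distances from the start site. Around the 3245 single start sites with a member, the fullest 20-base bin of NFY was 80 to 60 bases upstream (from -80 to -60), and 1024 occurrences lay in the 100 bases upstream beside 282 in the 100 bases downstream. SP/KLF, NRF1 and CRE were fullest in the last 20 bases before the start, and ETS in the first 20 bases after it. YY1 was fullest 20 to 40 bases downstream, with 195 occurrences in the 100 bases downstream and 52 in the 100 bases upstream. Of the 140 YY1 occurrences within 60 bases downstream, 80.7% were on the strand of the gene, beside 53.8% of 186 for NRF1, 53.0% of 285 for ETS and 62.6% of 1003 for SP/KLF. TATA was fullest 40 to 20 bases upstream (from -40 to -20), with 38 occurrences.

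**Figure D3:**
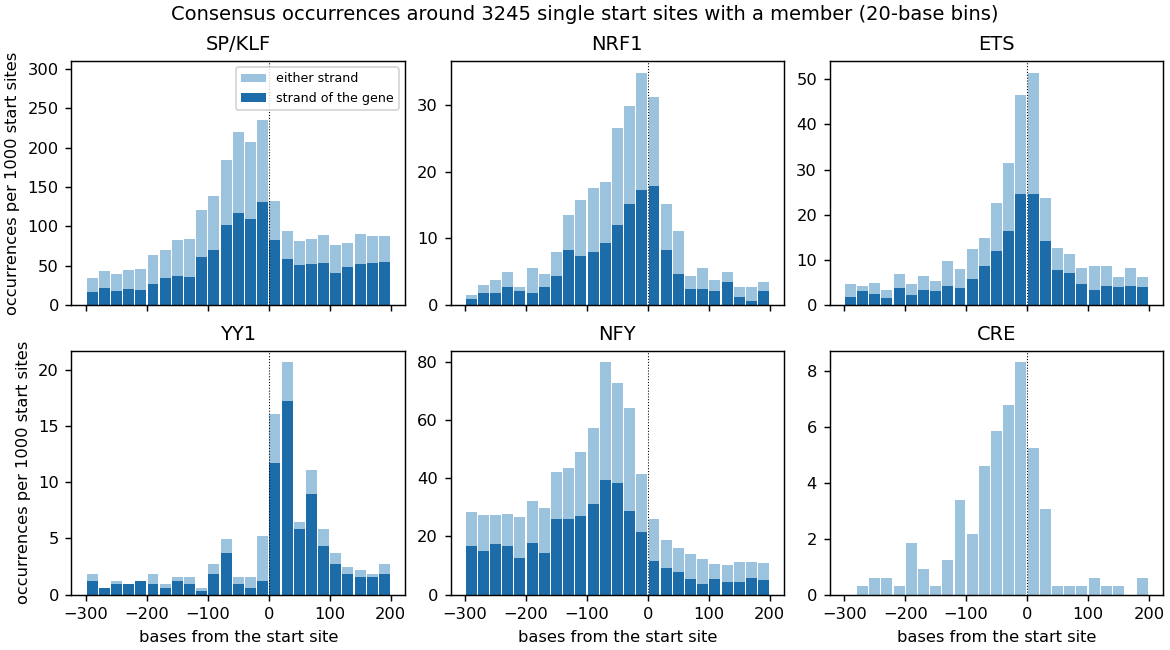
Occurrences of 6 consensus sequences per 1000 start sites in 20-base bins by distance in bases from the start site, for 3245 single start sites with a member; dark bars are occurrences on the strand of the gene, light bars both strands, and CRE reads the same on both. YY1 stands downstream of the start and mostly on the strand of the gene (80.7% within 60 bases), and NFY upstream with its fullest bin from -80 to -60.

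Footprints covered some consensus sequences in members far more often than others. Of CRE occurrences in members, 74.3% lay wholly inside a footprint in replicate 1 (393 occurrences, 69.8 to 78.4%) and 87.4% in replicate 2 (390 occurrences). For NRF1 the shares were 74.9% of 2216 and 79.8% of 2190, and for CTCF 87.3% of 79 and 90.1% of 81. The shares for any stretch of the same length in members were 12.03% and 16.1% for CRE, 10.9% and 14.8% for NRF1, and 6.72% and 9.58% for CTCF. SP/KLF had 40.6% and 47.7%, E-box 24.8% and 25.9%, ETS 22.0% and 34.4%, and YY1 18.3% and 27.3%. NFY had 17.0% and 23.0%, beside 16.1% and 20.8% for any stretch of its length. PU.1 (2.92% and 7.09%), AP-1 (3.04% and 4.51%), RUNX (6.38% and 10.5%) and GATA (6.67% and 9.76%) were covered less often than stretches of their length, which were covered at 12.03% to 14.8% in replicate 1 and 16.1% to 19.3% in replicate 2. In peaks away from promoters PU.1 (2.46% and 4.35%), AP-1 (5.64% and 7.79%) and GATA (5.88% and 11.5%) likewise fell below such stretches. The stretches there were covered at 7.98% to 10.3% in replicate 1 and 11.9% to 14.9% in replicate 2. RUNX did not fall below there, at 9.46% and 17.9% beside 9.15% and 13.4%. YY1 was covered more often there than in members, at 33.1% and 44.7%.

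The same letters read backwards gave a comparison of equal base composition, chosen after these values were seen. CpG content was not held equal, since CRE and ETS lose their CpG when read backwards. Whether a backward string is itself bound was not tested. Backward CRE was covered in 5.26% of 38 occurrences in replicate 1 and 11.1% of 36 in replicate 2. Backward NRF1 was covered in 53.7% and 61.7%, but most of those occurrences overlapped a forward one. Among the backward occurrences clear of any forward NRF1 occurrence, 174 and 175 in number, the shares were 6.90% and 14.9%. For SP/KLF all backward occurrences were covered in 37.4% and 44.7%, beside 40.6% and 47.7% forward. Those clear of a forward one, 5967 of 16937 and 6011 of 16930, were covered in 22.6% and 28.3%. For ETS the clear backward occurrences were covered in 11.1% and 11.6%, beside 22.0% and 34.4% forward. For NFY they were covered in 10.4% and 14.3%, beside 17.0% and 23.0% forward. Forward occurrences that overlapped a backward one were kept, so the clear and forward sets are unlike. The strings with low coverage were covered about as rarely backwards, at 9.09% and 12.3% for the GATA string, 7.10% and 7.82% for RUNX, 1.77% and 6.54% for PU.1, and 2.20% and 3.91% for AP-1.

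**Figure D4:**
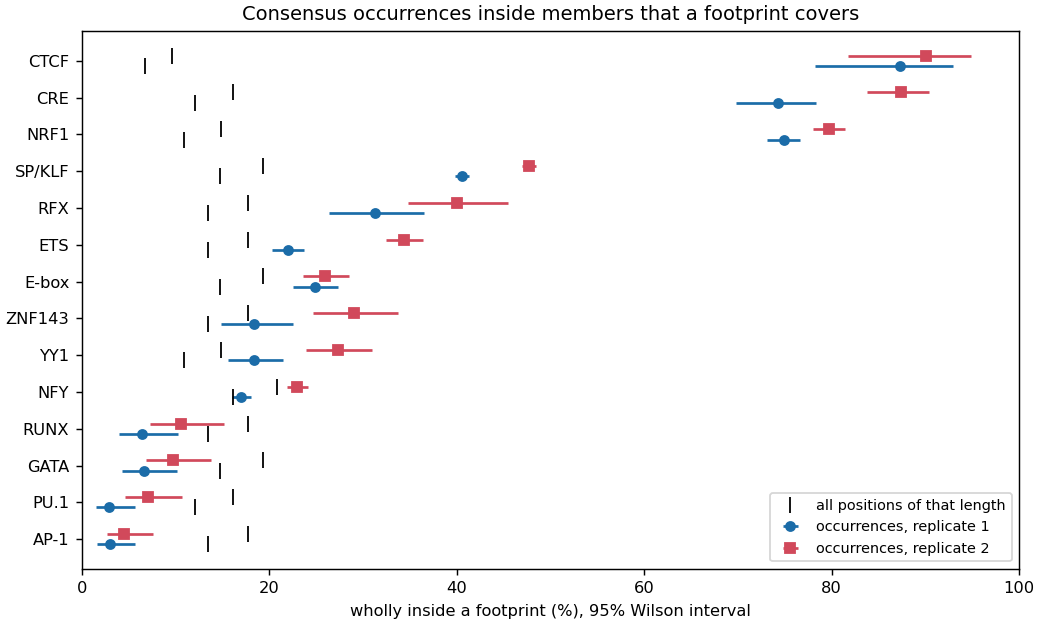
Share of consensus occurrences in members that lay wholly inside a footprint, in percent, with 95% Wilson intervals; circles are replicate 1, squares replicate 2, and black ticks the share for any stretch of the same length. CTCF, CRE and NRF1 lie above 70% in both libraries, and AP-1, PU.1, GATA and RUNX lie left of their ticks.

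Genes of basic cell functions had a member almost without exception. The background is the 81.0% of all 9566 eligible genes with a member. In all lists, a gene said to have no member or no peak had none at an eligible start site. Peaks at its other start sites were not counted. All eligible genes on the list had one for proteasome subunits (28 of 28), respiratory chain and ATP synthase (49 of 49), aminoacyl-tRNA synthetases (23 of 23), splicing factors (47 of 47), nuclear pore (18 of 18), ubiquitin-conjugating enzymes (28 of 28) and DNA replication (30 of 30). Cytosolic ribosomal proteins had one in 67 of 68, and the gene without was Rpl10l. Translation initiation factors had one in 41 of 44, without it being Eif2s3y, Eif3j2 and Eif4e3, the last with a peak in replicate 2. Eif2s3y lies on chromosome Y, and both libraries came from females. RNA polymerase II and Mediator had one in 33 of 34, and Med12l had a peak in replicate 2 alone. Zinc finger genes named Zfp had one in 169 of 187 (90.4%, 85.3 to 93.8%).

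The best members of these lists ranked high and varied widely in signal. The best of each gene had a median mean percentile of 92.6 for ribosomal proteins, 91.2 for the proteasome, 93.3 for splicing factors and 94.6 for the nuclear pore, beside 88.8 for all genes with a member. Rplp0 had a signal of 14.6 and 20.1, while Rpl23a, the lowest ribosomal protein, had 2.46 and 3.17. Snrnp70, of the U1 snRNP, had 16.3 and 30.3, and Snrpb2, the lowest splicing factor, 2.88 and 3.21. Pold1, a DNA polymerase delta subunit, had 17.5 and 22.6, and Pola1, of the primase complex, 2.14 and 2.77. Among ubiquitin-conjugating enzymes Ube2h had 17.3 and 22.0, and Ube2e2 had 1.37 and 0.989. The highest and lowest gene of each list were picked by their mean rank in these same libraries, so a gap between them is part of the choice.

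**Figure D5:**
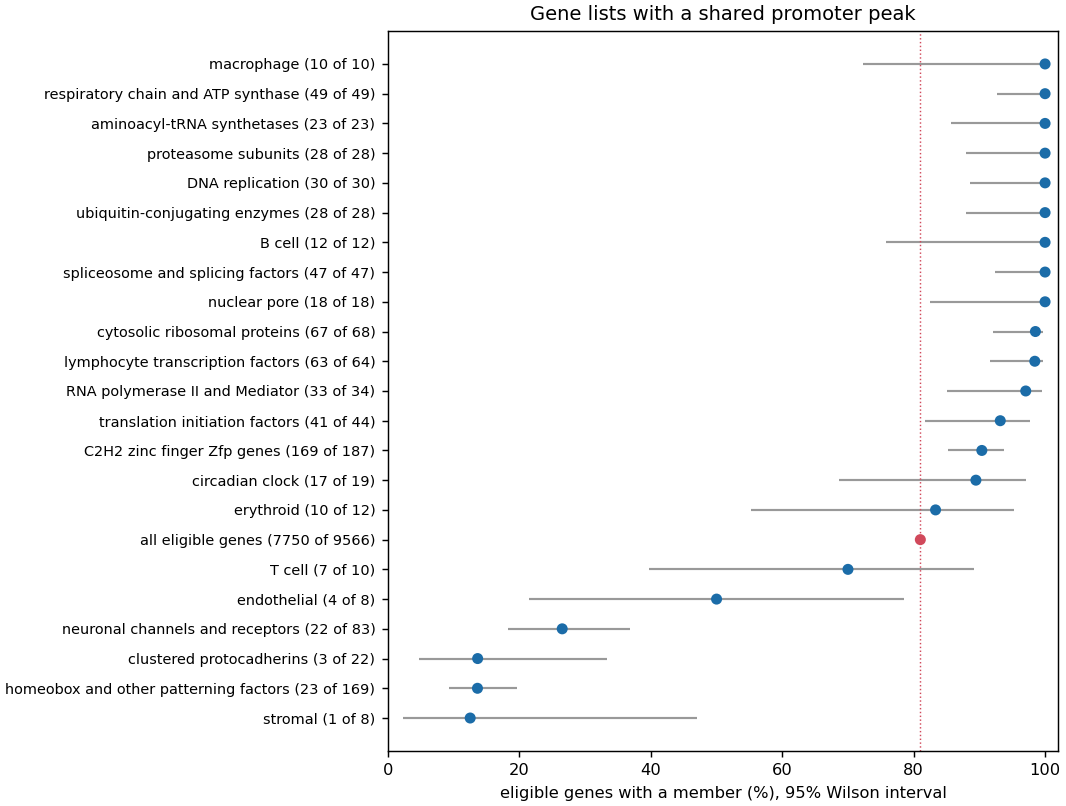
Share of eligible genes with a member in each gene list, in percent, with 95% Wilson intervals; counts stand beside each list name, and the red point and dotted line mark all eligible genes (81.0%). Basic cell functions lie at or near 100%, and patterning factors (13.6%), clustered protocadherins (13.6%) and stromal genes (12.5%) lie lowest.

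The lymphocyte transcription factors on the list had a member nearly as often as basic cell functions. Of 64 eligible lymphocyte transcription factors 63 had one (98.4%, 91.7 to 99.7%), and Nfatc2 had none. The share depends on the make-up of the list. Gata3 and Tcf7 were counted with the T cell genes only, and Tbx21 with the patterning factors only. All of these were eligible and lacked a member. Stat3 had signals of 15.8 and 17.5 and Jund, an AP-1 subunit, 13.7 and 18.5. Klf2, which governs lymphocyte trafficking, had 12.3 and 21.2, and Ets1 11.7 and 16.1. Ikzf1, which encodes the lymphoid regulator Ikaros, had 5.10 and 7.02. Runx1 had 2.36 and 4.09, Myb 2.17 and 2.68, and Bcl6, the regulator of germinal centre B cells, 2.05 and 2.16. Ikzf2, which encodes Helios, was the lowest at 0.770 and 1.09. The best member of these genes had a median percentile of 90.0, beside 88.8 over all genes.

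Few of the marker genes of spleen cells had a CpG-rich single-gene promoter, so these lists check the tissue only in part. Of 37 B cell genes 12 were eligible, and all 12 had a member. Among them Pax5, which holds B cell identity, had 2.91 and 4.24, Irf8 5.72 and 7.54, Bach2 6.00 and 9.05, and Syk, a kinase of the B cell receptor, 2.27 and 4.62. Of 10 eligible T cell genes 7 had a member: Satb1 had 4.71 and 6.92, Lef1 1.498 and 1.79, and Bcl11b, which is required for T cell commitment, 1.01 and 0.953. Gata3 and Prkcq had a peak in replicate 2 alone, and Tcf7 had none. Of 12 eligible erythroid genes 10 had a member. Epb41, of the red cell skeleton, had 16.5 and 22.3, Tfrc, the transferrin receptor, 11.1 and 18.5, and Tal1 1.32 and 1.24, while Ank1 and Slc25a37 had none.

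Macrophage genes had a member in 10 of 10, endothelial genes in 4 of 8 (interval 21.5 to 78.5%) and stromal genes in 1 of 8 (12.5%, 2.24 to 47.1%). Tgfbr1 led the macrophage list with 12.4 and 19.5, Ctsd, a lysosomal protease, had 6.70 and 7.80, and Slc40a1, the iron exporter ferroportin, 1.22 and 1.40. Of the endothelial genes with a member, 2, Ets2 and Tal1, also stand on the T cell or erythroid list. Kdr, a receptor for VEGF, had only 0.538 and 0.574, and Flt1, Flt4, Sox17 and Sox18 had none. The stromal gene with a member was Vim, an intermediate filament gene also active in lymphocytes and macrophages, with 2.52 and 4.11. Cxcl12 and Wt1 had a peak in replicate 2 alone, and Des, Nr2f1, Nr2f2, Pdgfra and Tlx1 had none. None of the hepatocyte list was eligible. The circadian clock list had a member in 17 of 19, led by Per2 with 14.1 and 17.1, and lacked it at Npas2 and Rorb.

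Developmental regulators formed the largest group of CpG-rich promoters without a member among the lists. Of 169 eligible homeobox and other patterning factors 23 had one (13.6%, 9.24 to 19.6%), 13 had a peak in replicate 2 alone and 133 had none in either library. The share was 7.69% with the strongest peaks alone, 20.1% with the longer lists and 21.3% without replicate 1. Those with a member included factors used in blood or in many tissues: Pax5, Sox4 (signals 5.09 and 7.36), which acts in lymphocyte development, and Foxk1, Foxk2 and Foxj2. Sox12 ranked highest with 6.79 and 8.48, and Foxe1 lowest with 0.559 and 0.574. Hoxa4 had signals of 3.18 and 2.97, and Hoxa7 had 0.865 and 0.769. Neuronal channels and receptors had a member in 22 of 83 (26.5%, 18.2 to 36.9%). The highest was Chrnb1, an acetylcholine receptor subunit, with 8.17 and 16.7 at offsets of 472 and 532 bases, and Kcna3, the potassium channel of T cells, had 2.34 and 2.94. Clustered protocadherins had a member in 3 of 22.

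The share of genes with a member rose with CpG density. It was 71.5% (69.6 to 73.3%) of 2289 genes whose highest CpG ratio was 0.6 to 0.7, 79.9% of 2813 genes at 0.7 to 0.8, 84.6% of 2500 genes at 0.8 to 0.9, and 89.1% (87.4 to 90.6%) of 1482 genes at 0.9 to 1. It was 89.4% (86.4 to 91.9%) of the 482 genes above that. A gene with more eligible start sites had more chances both of a high ratio and of a member. The number of sites was not held equal. By chromosome the autosomes had 81.3% (80.5 to 82.1%) and the X chromosome 73.4% (67.7 to 78.4%) of 259 genes. Single autosomes ranged from 74.6% (69.8 to 78.9%) on chromosome 14 to 85.7% (82.4 to 88.5%) on chromosome 8. The interval of the X chromosome overlapped that of chromosome 14. None of the 6 eligible genes of chromosome Y had a member in these females.

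Genes with a member had more accessible sites away from promoters nearby than genes without. Within 50 kb of any eligible start site of the gene, 7750 genes with a member had a median of 2 shared peaks away from promoters. The quartiles were 1 and 3, and 20.4% of these genes had none. The 1816 genes without a member had a median of 0 (quartiles 0 and 2), and 52.6% had none. A gene with more start sites had a longer stretch searched and more places for a member. The number of start sites was not held equal between the groups. The median for genes with a member depended on the peak list, at 0 with the strongest peaks alone and 3 with the longer lists or without replicate 1. In 5 groups of 1550 genes ordered by the signal of their best member, the mean number rose from 2.04 to 2.32, 2.44, 2.51 and 2.87. The median was 5 for the B cell list and 4 for lymphocyte transcription factors, beside 3 for ribosomal proteins, 2 for splicing factors and 2 for all. The largest number was 19, at Tmem107, followed by 17 at its neighbours Borcs6 and Vamp2, and 16 at Aurkb, on the same stretch of chromosome 11, so these counts can share peaks. Btg2, an antiproliferative gene of lymphocytes, and Sema4b, a semaphorin, had 16 each.

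A few members ranked differently in the 2 libraries. Gm10719 on chromosome 9 had a signal of 16.4 in replicate 1 and 0.738 in replicate 2, and Gm10718 had 2.64 and 0.979. The central 50 bases of these members had 6 and 58 exact copies in the assembly. Iqsec3, an exchange factor of ARF GTPases, had 1.32 and 0.630, and its central bases occurred once. In the other direction stood the potassium channel gene Kcnk10 (0.538 and 1.44) and Nat8l (0.654 and 1.52), the N-acetylaspartate synthetase. Their percentiles were 5.18 and 58.9 for Kcnk10, and 12.5 and 60.7 for Nat8l. With 1 library each way these differences have no replicate check.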

How the data were processed

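The authors deposited, per library, peaks in narrowPeak form with a signal value, footprints called at an FDR of 0.01, and tracks of runs with an FDR (q-value) below 0.05, all on mm10 and derived from that library's alignments without pooling, per the file headers. Neither the scale of the signal nor the aligner or peak caller is named in those headers or the labels, so the depth is unknown and signal was compared only as a rank within a library. Of the 2 peak lists per library the shorter was used. The deposited q-value tracks gave the accessible profile at q of at most 0.001.

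Start sites came from GENCODE vM21 basic and sequence from the GRCm38.p6 assembly, which is mm10. Peaks of the 2 libraries were paired by an overlap of at least 1 base. A peak counted a footprint it overlapped. Offsets run from start site to peak midpoint along the gene, negative upstream. Consensus sequences were 15 strings searched on both strands, CTCF by a longer pattern named only. Accessible share, footprints and lists were described without tests, since 1 group of 2 libraries allows none. Analyses used Python 3.11.15, numpy 2.4.6, pandas 2.3.3, scipy 1.17.1 and pysam 0.24.0, and the functions were tested on simulated data.

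The members and the 23 gene lists were chosen with earlier results of these data known. Named members were the 10 best and 5 worst by mean rank, the 5 with most footprints, the 5 widest, the 3 with the largest rank difference in each direction, and the best and worst of each list. The printed sequences were further limited to bases outside exons. The rule for ZNF143 gave a sequence with 2 exact copies, at Gm21887, which is not printed. Other genes of the immune and patterning lists named in the text were chosen after their values were seen. A few members that the rule named are not reported here.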

Additional observations from a re-analysis of the deposited data

Results flagged for a closer look

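Of the 1438 eligible genes with no peak in either shorter list, 80 (5.56%, 4.49 to 6.87%) had overlapping peaks in the longer lists of both libraries, which no comparison above used. The longer list of replicate 1 held a peak at 153 of these genes (10.6%) and that of replicate 2 at 461 (32.1%). The longer lists admit weaker peaks, and no control library gives their background.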

How the results depend on the processing

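Of 132 values recomputed for 14 results under 14 settings, 81 moved by less than the spread between libraries (for shares, the interval; for counts, 1.5 times), and 51 moved further. The median offset stayed upstream under each setting run for it. The main values, over members and their partners in replicate 2, are 81.0% of eligible genes with a member, a median percentile of 81.8, a median offset of -23.5, 3.62 footprints per member, 88.5% of eligible peaks shared, 12.3% of members with NRF1, 13.6% of patterning factors and a median of 2 peaks nearby away from promoters. The longer lists gave 84.6% of genes, an offset of -19.5, 11.1% with NRF1, 20.1% of patterning factors and 3 peaks nearby. A promoter reach of 500 bases gave 80.1% of genes, -26.5 and 13.7% with NRF1. A CpG ratio of at least 0.75 gave 85.1%, -25 and 13.3%. Keeping the strongest peaks of each library, 0.5 of the number in replicate 1, gave 71.8% of genes, percentile 71.6, offset -33.5, 4.38 footprints, 95.3% shared, 15.5% with NRF1, 7.69% of patterning factors and 0 peaks nearby. Without peaks that also reach a left-out start site the share of genes was 79.5% and the offset -24.5. NRF1 searched from 250 bases before to 50 after the start gave 15.97%, and a reach of 100 kb gave 4 peaks nearby. As many peaks in each library as in replicate 1, an alternative chosen after seeing the data, gave 78.9% of genes, -26.5 and 12.9% with NRF1. Members of genes with 1 start site, likewise chosen after seeing the data, had an offset of -22 in both libraries. With either library left out, the values ran from 81.4 to 84.7% of genes, percentile 77.3 to 79.1, offset -20 to -18, 3.13 to 3.45 footprints, 10.8 to 11.6% with NRF1, 13.6% of patterning factors without replicate 2 to 21.3% without replicate 1, and 2 to 3 peaks nearby. The cause of these shifts was not tested beyond what each setting changes. The number of members ran from 8073 to 14149. No paired analysis was possible because the 2 libraries form 1 group.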

Other observations

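The widest members were not the strongest. Mdfic, an inhibitor of myogenic and other transcription factors, had a member 1080 bases wide in replicate 1 and 1077 in replicate 2, at percentiles of 35.0 and 42.1. Syncrip, an RNA-binding protein, had one of 1000 and 920 bases at percentiles of 27.1 and 40.5, Whrn one of 920 and 760 bases, and Etv6, an ETS-family repressor of blood stem cells, one of 640 and 1080 bases at percentiles of 59.1 and 67.7.

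Members with a GATA consensus ranked lower than members without, with median percentiles of 67.3 and 75.9 for 257 members, beside 79.5 and 84.4. The AP-1 values were 71.9 and 80.1 for 253 members, beside 79.5 and 84.4. For RUNX the values were 79.1 and 85.3 for 212 members, beside 79.3 and 84.2.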
